A study of Mus musculus with 8 samples.

Results

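The genes described here load peptides onto major histocompatibility complex (MHC) class I molecules and make the inducible proteasome that cuts those peptides. They were chosen by symbol as 10 named genes, namely H2-K1, H2-D1, B2m, Tap1, Tap2, Tapbp, Psmb8, Psmb9, Psmb10 and Nlrc5, and all 10 were found by gene ID among the 55414 genes of the count table. Counts were high enough to test 9 of the 10, among 11988 genes tested. Nlrc5 was the gene that did not pass.

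Paneth cells, the secretory cells at the bottom of the crypts of the small intestine, were sorted from C57BL/6J mice and their mRNA was sequenced. The control group drank Milli-Q water (ultrapure water) and the zinc group drank water supplemented with 25 mM ZnSO4, in both cases for 7 days. Each group had 4 libraries, called water 1 to 4 and zinc 1 to 4 below. The labels name no other allele or agent in either group, and nothing in them gives the age of the mice. The study sorted the cells by surface staining, so the libraries describe the sorted Paneth gate and not the whole crypt.

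Class I molecules show fragments of a cell's own proteins to CD8 T cells at the cell surface. Proteasomes cut proteins into peptides, the TAP transporter carries the peptides into the endoplasmic reticulum, and tapasin holds empty class I molecules next to TAP until a peptide is bound. In cells that meet interferon gamma, the catalytic proteasome subunits are replaced by 3 inducible ones, which gives the immunoproteasome, and the class I transactivator Nlrc5 raises the transcription of many of these genes.

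Of the 10 genes, 7 lie on mouse chromosome 17 (coordinates are GENCODE M39 on GRCm39). H2-K1 (chr17:34214987-34219321, minus strand) and H2-D1 (chr17:35481691-35486475, plus strand) encode the classical heavy chains. Psmb9, Tap1, Psmb8 and Tap2 follow each other within 34870 bases, in this order, from chr17:34400960 to 34435829. Tapbp (chr17:34134873-34148267, plus strand) is also on chromosome 17. B2m is at chr2:121977957-121983594 on the plus strand. Psmb10 (chr8:106662362-106665077, minus strand) and Nlrc5 (chr8:95160984-95253900, plus strand) are both on chromosome 8.

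RefSeq promoter windows of 250 bases before and 50 after the start were given for 8 of the 10 genes (table build GRCm38.p6, each found by exact match once in GRCm39). Nlrc5 and Tap2 were not among them. The 250 bases before the RefSeq start are shown 5′ to 3′ on the gene's strand for H2-K1 (chr17:34219322-34219571, minus strand), H2-D1 (chr17:35481820-35482069, plus strand), B2m (chr2:121977918-121978167, plus strand) and Tap1 (chr17:34406280-34406529, plus strand). The first 3 are shown because they hold the same pair of motifs at the same spacing, and Tap1 because all 250 of these bases are also in the Psmb9 window. Capitals mark, on either strand, the cyclic AMP response core TGACG and the CCAAT box.
H2-K1: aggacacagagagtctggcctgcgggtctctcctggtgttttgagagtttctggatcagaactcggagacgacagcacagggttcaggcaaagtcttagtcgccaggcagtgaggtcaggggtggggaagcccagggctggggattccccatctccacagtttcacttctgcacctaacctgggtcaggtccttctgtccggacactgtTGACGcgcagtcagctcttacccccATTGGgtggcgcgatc
H2-D1: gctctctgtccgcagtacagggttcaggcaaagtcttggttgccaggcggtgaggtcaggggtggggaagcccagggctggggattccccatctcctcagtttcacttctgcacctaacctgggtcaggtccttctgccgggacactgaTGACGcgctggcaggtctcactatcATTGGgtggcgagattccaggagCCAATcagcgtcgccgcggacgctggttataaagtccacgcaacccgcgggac
B2m: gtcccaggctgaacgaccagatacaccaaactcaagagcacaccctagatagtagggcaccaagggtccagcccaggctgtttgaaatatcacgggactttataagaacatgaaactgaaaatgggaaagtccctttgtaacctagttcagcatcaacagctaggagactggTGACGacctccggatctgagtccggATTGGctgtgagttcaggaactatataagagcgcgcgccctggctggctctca
Tap1: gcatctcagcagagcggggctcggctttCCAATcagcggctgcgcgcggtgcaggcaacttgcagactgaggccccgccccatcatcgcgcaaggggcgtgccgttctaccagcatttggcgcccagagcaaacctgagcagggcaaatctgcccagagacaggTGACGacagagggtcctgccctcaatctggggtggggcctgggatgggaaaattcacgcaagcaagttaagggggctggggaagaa

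In H2-K1, H2-D1 and B2m, TGACG was followed after 20 bases by a CCAAT box on the opposite strand (read as ATTGG in the lines above). The pair at this spacing, noticed in these sequences and then counted, occurred in 26 of 27025 RefSeq windows of the same length (0.0962%) and in 3 of the 8 windows of the class I genes. The H2-K1 and H2-D1 windows were identical at 176 of 240 positions (73.3%) when shifted by 60 bases without gaps. Each motif alone was common. TGACG was present in 5 of the 8 windows (H2-K1, H2-D1, B2m, Tap1 and Psmb9) and in 21.0% of all windows, and CCAAT in 6 of the 8 and in 37.9% of all windows. The TGACG of Tap1 and Psmb9 is a single stretch counted for both genes, and so is their CCAAT. The metal response core TGCACNC, bound by the zinc sensor Mtf1, was found in 1 of the 8 windows (Tapbp) and 12.4% of all windows. In Tapbp it lay after the start, at positions 10 to 16 counted from it, on the opposite strand. The form TGCGCNC was found in 2 of the 8 windows (Tap1 and Psmb9) and 15.5% of all windows. There it is a single stretch read from both genes.

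Tap1 and Psmb9 stand head to head. Their RefSeq starts are 226 bases apart, their windows share 275 bases, and their GENCODE spans overlap by 743 bases. RefSeq starts differed from the GENCODE canonical starts by up to 479 bases (Psmb8), and by 0 bases for H2-K1, so the windows depend on the start that is used. A motif match describes letters in a window and does not show that a factor binds there.

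Levels were compared between genes per kilobase of merged exons, in CPM (counts per 1000000, with library sizes adjusted by TMM factors). B2m, the light chain of all class I molecules, had the highest level at 141 ± 27.3 CPM per kilobase (SD over 8 libraries). H2-K1 followed at 111 ± 19.9 and H2-D1 at 66.0 ± 9.28 CPM per kilobase. B2m was above H2-K1 in all 8 libraries, although their ranges over libraries overlapped, and H2-K1 was above H2-D1 in all 8 with no overlap.

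The loading and proteasome genes had lower levels per kilobase. Psmb10 stood at 20.2 ± 3.76, Tapbp at 12.04 ± 1.77 and Psmb8 at 4.50 ± 1.32 CPM per kilobase. Psmb9 (2.37 ± 0.630), Tap2 (1.95 ± 0.449) and Tap1 (1.67 ± 0.344 CPM per kilobase) formed the lowest group of tested genes. By this length Psmb9 was above Tap2 in only 6 of the 8 libraries, and their ranges overlapped. With the canonical transcript as the length they were apart, at 6.66 CPM per kilobase (range 4.00 to 9.15) for Psmb9 and 2.33 (1.66 to 3.15) for Tap2. The order of Tap1 and Tap2 turned with the canonical length, which put Tap1 at 3.23 CPM per kilobase, above Tap2. The class I transactivator Nlrc5 came last at 0.00977 ± 0.00916 CPM per kilobase.

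**Figure D1:**
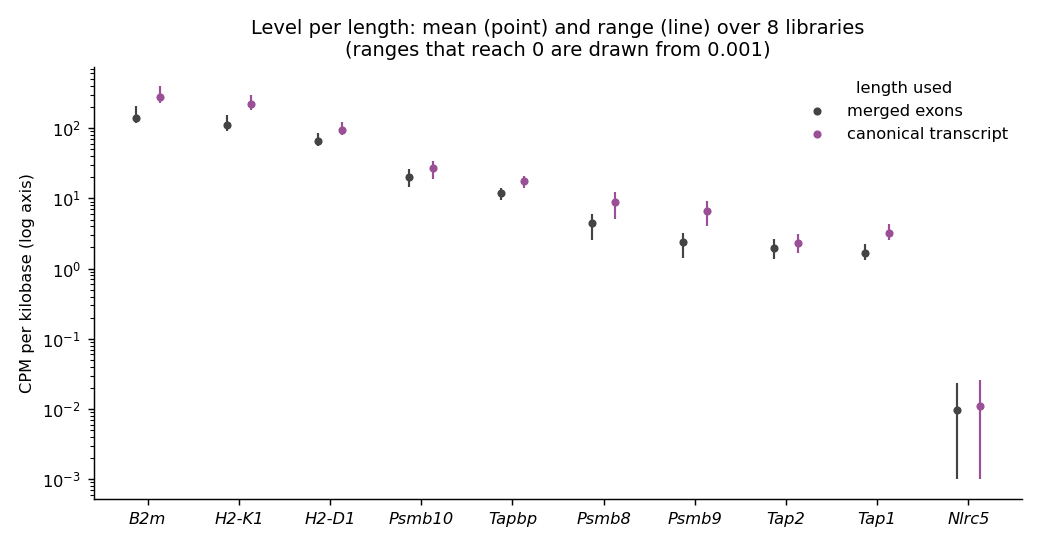
Level of each of the 10 genes in CPM per kilobase (logarithmic axis), as the mean (point) and range (line) over the 8 libraries, with merged exons or the canonical transcript as the length. B2m, H2-K1 and H2-D1 are highest (141, 111 and 66.0 CPM per kilobase of merged exons), and Nlrc5 is far below all others at 0.00977.

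The question was whether any of these genes differed between zinc and water. edgeR's quasi-likelihood test called 10 of 11988 genes at an adjusted p below 0.05 (0.0834%, or 0.0584% counting only genes lower in zinc), and 0 of the 9 tested class I genes. At an unadjusted p below 0.05 the same test had 558 genes (4.65%), of which 3 were among the 9 class I genes, namely Psmb8, Tap2 and Tapbp. DESeq2 called 0 of the class I genes with 3 at an unadjusted p below 0.05 (over 20836 genes, 0.173% were called and 3.22% had such a p). limma-voom called 0 with 2 (over 11988 genes, 0.0918% and 5.05%). With library totals as the only scaling, 0 class I genes had an unadjusted p below 0.05, against 226 of all genes.

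The log2 fold changes of all 9 tested genes were below 0 (zinc against water), from -0.52 for Psmb8 to -0.01 for H2-K1, although H2-K1 turned to above 0 under library totals as the only scaling, under limma-voom, under the replicate block, and when water 1, zinc 2 or zinc 3 was left out. Their median was -0.29. Among all 11988 genes, 48.1% were below 0 and the median was 0.01. The 9 genes were measured in the same libraries and are not independent of each other, so their shared side of 0 is a description. In sorted bulk samples, fewer cells of a type and less RNA per cell cannot be told apart.

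H2-K1, a classical heavy chain, read 485, 332, 291 and 314 CPM in water 1 to 4 and 406, 313, 333 and 358 CPM in zinc 1 to 4. The groups overlapped fully, with water 1 the highest library and water 3 the lowest. Its log2 fold change was -0.01 (SE 0.15, 95% interval -0.34 to 0.31), with an adjusted p of 0.998 by edgeR.

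H2-D1, the other classical heavy chain, read 257, 204, 183 and 187 CPM in the water libraries and 185, 167, 185 and 211 CPM in the zinc libraries. Water 1 was again the highest, zinc 2 was the lowest, and the groups overlapped. In the fit, its log2 fold change was -0.15 (SE 0.13, 95% interval -0.42 to 0.12). Of the 75-base windows of their canonical transcripts, 19.6% in H2-K1 and 32.5% in H2-D1 also occurred in other genes, among them H2-Q1. Here and below, a window counted as shared if it matched a transcript of another gene on either strand. How the study counted reads of such windows was not stated, so the split of counts between these relatives is uncertain.

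B2m, whose transcript shared 0 such windows with another gene, read 429, 292, 257 and 308 CPM in water and 298, 248, 280 and 262 CPM in zinc. Only zinc 2 lay below every water library, and water 1 stood above all the others. For B2m the log2 fold change was -0.24 (SE 0.15, 95% interval -0.55 to 0.07, unadjusted p = 0.119 and adjusted p = 0.998 by edgeR).

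Tap1 and Tap2 encode the partner chains of the peptide transporter. Tap1 had 212, 235, 282 and 229 counts in water 1 to 4 and 137, 166, 300 and 212 counts in zinc 1 to 4. Scaled, these were 8.75 to 13.3 CPM in water and 8.14, 8.01, 11.9 and 8.22 CPM in zinc. In the zinc group, 3 libraries lay close together and below every water library, while zinc 3 lay within the water range. Tap1 had a log2 fold change of -0.27 (SE 0.18, 95% interval -0.66 to 0.11).

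Tap2 read 12.5, 11.2, 10.3 and 8.48 CPM in water and 6.59, 7.34, 10.5 and 7.33 CPM in zinc. As for Tap1, zinc 1, 2 and 4 were below all water libraries and zinc 3 was not. For Tap2 the log2 fold change was -0.41 (SE 0.18, 95% interval -0.80 to -0.02), with an unadjusted p of 0.0390 and an adjusted p of 0.998 by edgeR.

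Tapbp encodes tapasin, which bridges TAP and the class I heavy chain. It read 62.5, 55.8, 56.9 and 62.1 CPM in water and 42.3, 42.7, 49.5 and 53.0 CPM in zinc. All 4 zinc libraries lay below all 4 water libraries, and Tapbp was the only one of the 9 tested genes whose groups did not overlap. Over all genes tested, the groups did not overlap in 2.84%, and in 1.59% with zinc the lower. Tapbp had a log2 fold change of -0.34 (SE 0.11, 95% interval -0.57 to -0.10), with an unadjusted p of 0.00766, the smallest of the 9 genes, and an adjusted p of 0.852 by edgeR. In Tapbp, 29.3% of the 75-base windows also occurred, on either strand, in another annotated gene.

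**Figure D2:**
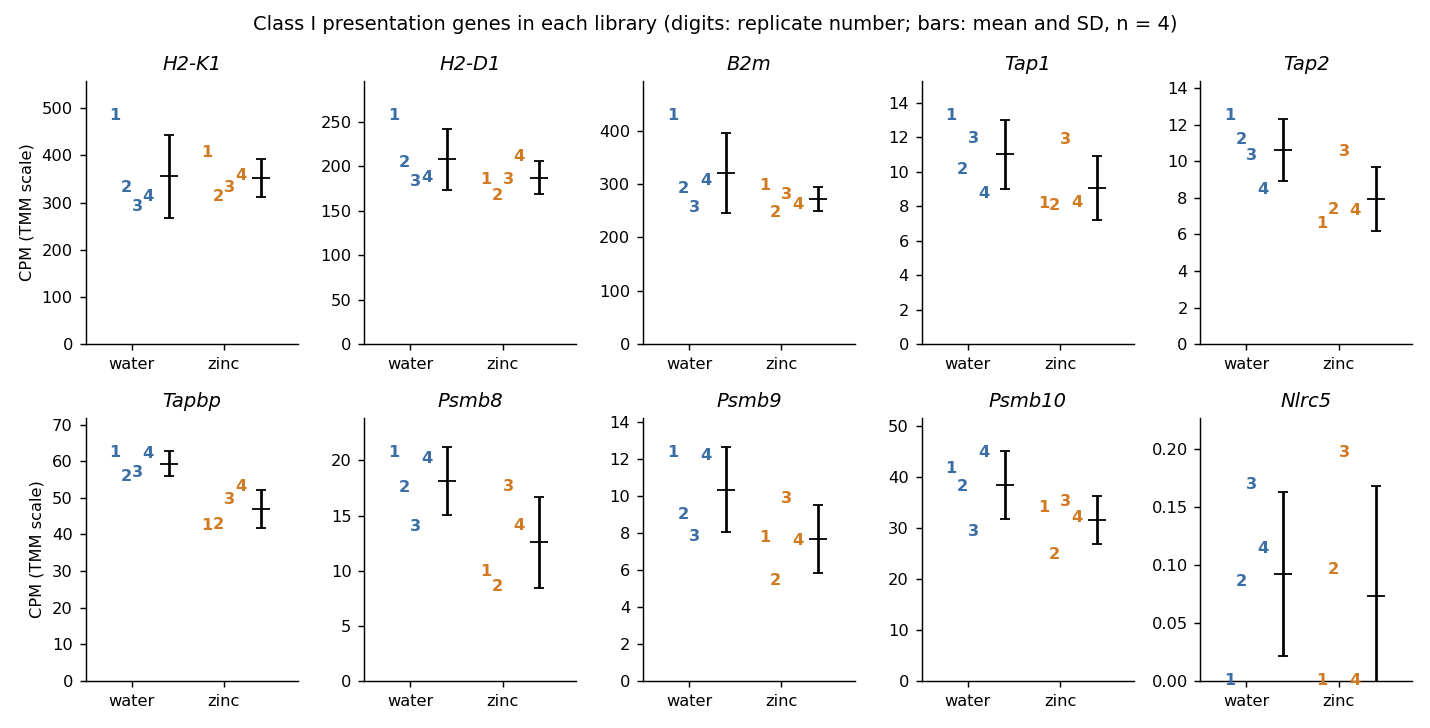
CPM on the TMM scale (linear axes from 0) of the 10 genes in each library, with digits for the replicate number in water (blue) and zinc (orange), and a bar for the mean and SD of 4 libraries. Tapbp is the only tested gene whose zinc libraries (42.3 to 53.0 CPM) all lie below its water libraries (55.8 to 62.5 CPM).

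The inducible catalytic subunits came next. Psmb8 (LMP7, the inducible chymotrypsin-like subunit, which takes the place of Psmb5) read 20.8, 17.6, 14.0 and 20.2 CPM in water and 9.92, 8.59, 17.7 and 14.1 CPM in zinc. Zinc 1 and zinc 2 were below every water library, while zinc 3 and zinc 4 lay within the water range. Psmb8 had a log2 fold change of -0.52 (SE 0.21, 95% interval -0.96 to -0.08), the furthest below 0 among the 9 genes, with an unadjusted p of 0.0231 and an adjusted p of 0.998 by edgeR.

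Psmb9 (LMP2, which takes the place of Psmb6) read 12.4, 8.98, 7.83 and 12.2 CPM in water and 7.78, 5.41, 9.88 and 7.60 CPM in zinc. Zinc 1, 2 and 4 lay below every water library, zinc 1 only narrowly, and zinc 3 lay inside the water range. For Psmb9 the log2 fold change was -0.43 (SE 0.20, 95% interval -0.86 to 0.0036), with an unadjusted p of 0.0518 by edgeR. Since 34.5% of the 75-base windows of Psmb9 also occurred in Tap1, and the use of strand in counting was not stated, reads of Psmb9 and Tap1 may not be fully separated.

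Psmb10 (MECL-1, which takes the place of Psmb7) read 41.7, 38.1, 29.4 and 45.0 CPM in water and 34.2, 24.8, 35.2 and 32.2 CPM in zinc. The groups overlapped, with zinc 2 alone below the lowest water library. The log2 fold change of Psmb10 was -0.29 (SE 0.14, 95% interval -0.59 to 0.02, unadjusted p = 0.0617 and adjusted p = 0.998 by edgeR).

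The constitutive subunits did not share this side of 0. Psmb5 had 12.3 ± 2.37 CPM in water and 13.4 ± 1.22 CPM in zinc (SD, n = 4), with a log2 fold change of 0.12 (SE 0.16). The values were 60.6 ± 8.66 and 66.0 ± 2.86 CPM for Psmb6 (log2 fold change 0.12, SE 0.12). Psmb7 had 46.1 ± 9.57 CPM in water and 48.7 ± 2.80 CPM in zinc (log2 fold change 0.08, SE 0.14). None of the 3 passed the threshold by edgeR, with unadjusted p values from 0.314 to 0.562.

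The ratio of each inducible subunit to its constitutive partner in the same library does not depend on library scaling. For Psmb8 to Psmb5, the raw count ratio was 1.42, 1.29, 1.53 and 1.70 in water 1 to 4 and 0.723, 0.679, 1.45 and 0.945 in zinc 1 to 4. In zinc, 3 of the 4 libraries lay below all water libraries, and zinc 3 did not. The log2 ratio was lower by 0.70 in zinc (0.614-fold, exact two-sided permutation p = 0.0857, adjusted over 3 ratios 0.0857).

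For Psmb9 to Psmb6, the count ratio was 0.202, 0.139, 0.162 and 0.179 in water and 0.116, 0.0874, 0.144 and 0.114 in zinc. Zinc 3 was again the only zinc library inside the water range. The ratio in zinc was 0.675-fold that in water (exact two-sided permutation p = 0.0571, adjusted 0.0857).

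For Psmb10 to Psmb7, the count ratio was 0.790, 0.821, 0.906 and 0.854 in water and 0.738, 0.528, 0.717 and 0.613 in zinc. All 4 zinc libraries were below all 4 water libraries. The ratio in zinc was 0.765-fold that in water (exact two-sided permutation p = 0.0286, the smallest that 4 against 4 allow, adjusted 0.0857), so none of the 3 ratios passed after adjustment. Without zinc 3, each of the 3 ratios had all remaining zinc libraries below all water libraries. The adjusted p was then 0.0286 by the same exact permutation test, the smallest that 4 against 3 allow. Zinc 3 was the only zinc library inside the water range for Psmb8 to Psmb5 and Psmb9 to Psmb6. Leaving it out therefore fixed this separation beforehand, and no conclusion is drawn from that p.

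**Figure D3:**
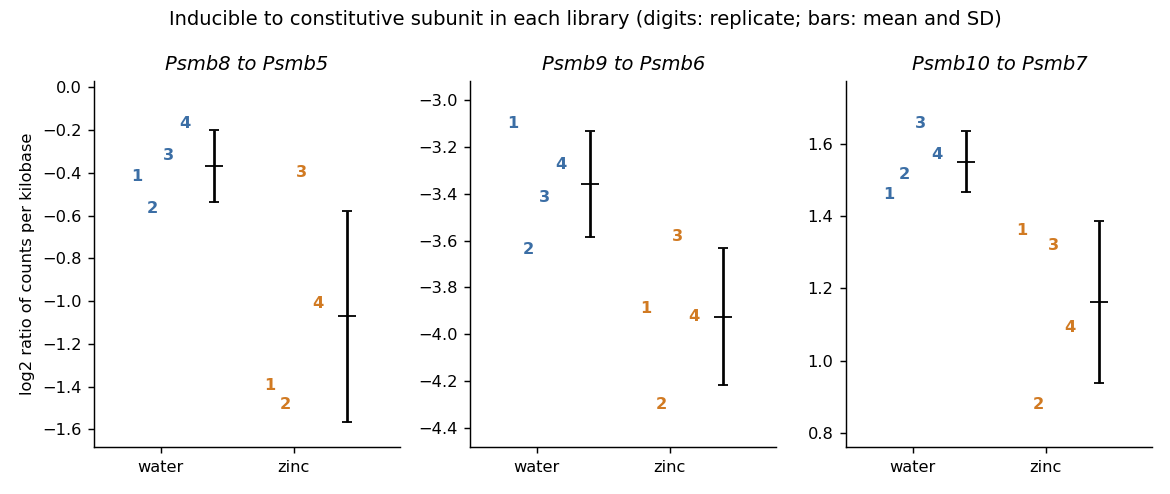
Log2 ratio of counts per kilobase of merged exons for each inducible subunit to its constitutive partner, by library (digits are replicate numbers, bars are mean and SD of 4 libraries, and each panel has its own axis range). The zinc libraries lie below the water libraries in all 4 for Psmb10 to Psmb7 and in 3 of 4 for the other ratios, with zinc 3 as the exception.

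The level of such a ratio depended on the gene length. In water, Psmb8 to Psmb5 was 0.775 per kilobase of merged exons and 1.47 per kilobase of the canonical transcript, and Psmb10 to Psmb7 was 2.93 and 0.744. Whether the inducible or the constitutive subunit was the more abundant transcript in water could therefore not be read from these counts for either pair. Psmb9 to Psmb6 was below 1 with both lengths (0.0976 and 0.129 in water). In zinc, the mean of Psmb8 to Psmb5 was below 1 with both lengths (0.476 and 0.905), although zinc 3 had a raw count ratio of 1.45. Psmb10 to Psmb7 in zinc again lay on both sides of 1 (2.24 and 0.569). In Psmb5, 38.0% of the 75-base windows also occurred in other genes, among them Gm3375, and in Psmb7 24.1% also occurred in Nek6. Both shares include matches on the opposite strand.

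Nlrc5, the class I transactivator, had 0, 2, 4 and 3 counts in water 1 to 4 and 0, 2, 5 and 0 counts in zinc 1 to 4. Summed, this was 9 counts in water (0.101 CPM, exact Poisson 95% interval 0.0462 to 0.192) and 7 counts in zinc (0.0790 CPM, 0.0317 to 0.162), where the intervals cover counting error only. No difference was detectable at this depth. H2-K1, in comparison, had 6477 to 9219 counts per library.

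The 49 other genes of the class I pathway were listed as further heavy chains, loading partners, constitutive subunits, proteasome activators, regulators and interferon receptors with their kinases, and 40 of them were tested. edgeR placed 0 of the 40 past the threshold and 5 at an unadjusted p below 0.05, all 5 lower in zinc, where 2.81% of all genes tested were lower at that level. Of the 40, 20 had a log2 fold change below 0 and 20 above 0, with a median of 0.00. The groups did not overlap in 2 of the 40 (Ciita and H2-Q4, described below), against 2.84% of all genes tested.

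Ciita, the class II transactivator and a relative of Nlrc5, had the smallest p of the 40. It read 2.31, 3.27, 3.85 and 2.25 CPM in water and 0.594, 0.724, 1.70 and 1.16 CPM in zinc. All zinc libraries were below all water libraries, as in 1.59% of all genes tested. The log2 fold change was -1.46 (SE 0.37), with an unadjusted p of 0.00115 and an adjusted p of 0.402 by edgeR, and the adjusted p was 0.0385 when no low-count filter was applied. The other 10 regulators, which include Irf1 and the Rfx genes, had 0 genes at an unadjusted p below 0.05 by edgeR.

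The receptor chain Ifngr1, through which interferon gamma acts, read 28.8, 35.0, 38.2 and 51.9 CPM in water and 28.3, 32.0, 28.0 and 24.4 CPM in zinc. The groups overlapped, with water 4 far above the rest. Its log2 fold change was -0.45 (SE 0.16, unadjusted p = 0.0100, adjusted p = 0.881 by edgeR), and that of its partner chain Ifngr2 was -0.37 (SE 0.14, unadjusted p = 0.0187).

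Among 19 further class I-like heavy chains, 10 were tested and 6 were below 0. H2-Q4 had the smallest p, with 7.78 to 9.93 CPM in water and 3.98 to 7.51 CPM in zinc. Its groups did not overlap, as in 1.59% of all genes tested with zinc the lower. Its log2 fold change was -0.45 (SE 0.20, unadjusted p = 0.0366, adjusted p = 0.998 by edgeR), and 26.2% of its 75-base windows also occurred in other genes. H2-Q7, the other one of this list at an unadjusted p below 0.05, was at 0.178 to 1.69 CPM over all libraries. Of the 9 that were not tested, 4 (H2-M5, H2-M9, H2-M10.1 and Mr1) had 0 counts in every library.

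The 5 loading partners, which include the chaperones Calr and Canx and the oxidoreductase Pdia3, had 0 genes at an unadjusted p below 0.05 by edgeR and a median log2 fold change of 0.06. The tapasin relative Tapbpl had the smallest p of them, with 16.0 ± 2.50 CPM in water and 13.9 ± 2.73 CPM in zinc (SD, n = 4, log2 fold change -0.19, unadjusted p = 0.259 by edgeR). Among the 4 proteasome activators, Psme1, a subunit of the interferon-inducible activator PA28, came first with a log2 fold change of -0.24 (SE 0.12, unadjusted p = 0.0624 by edgeR). Neither passed the threshold.

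**Figure D4:**
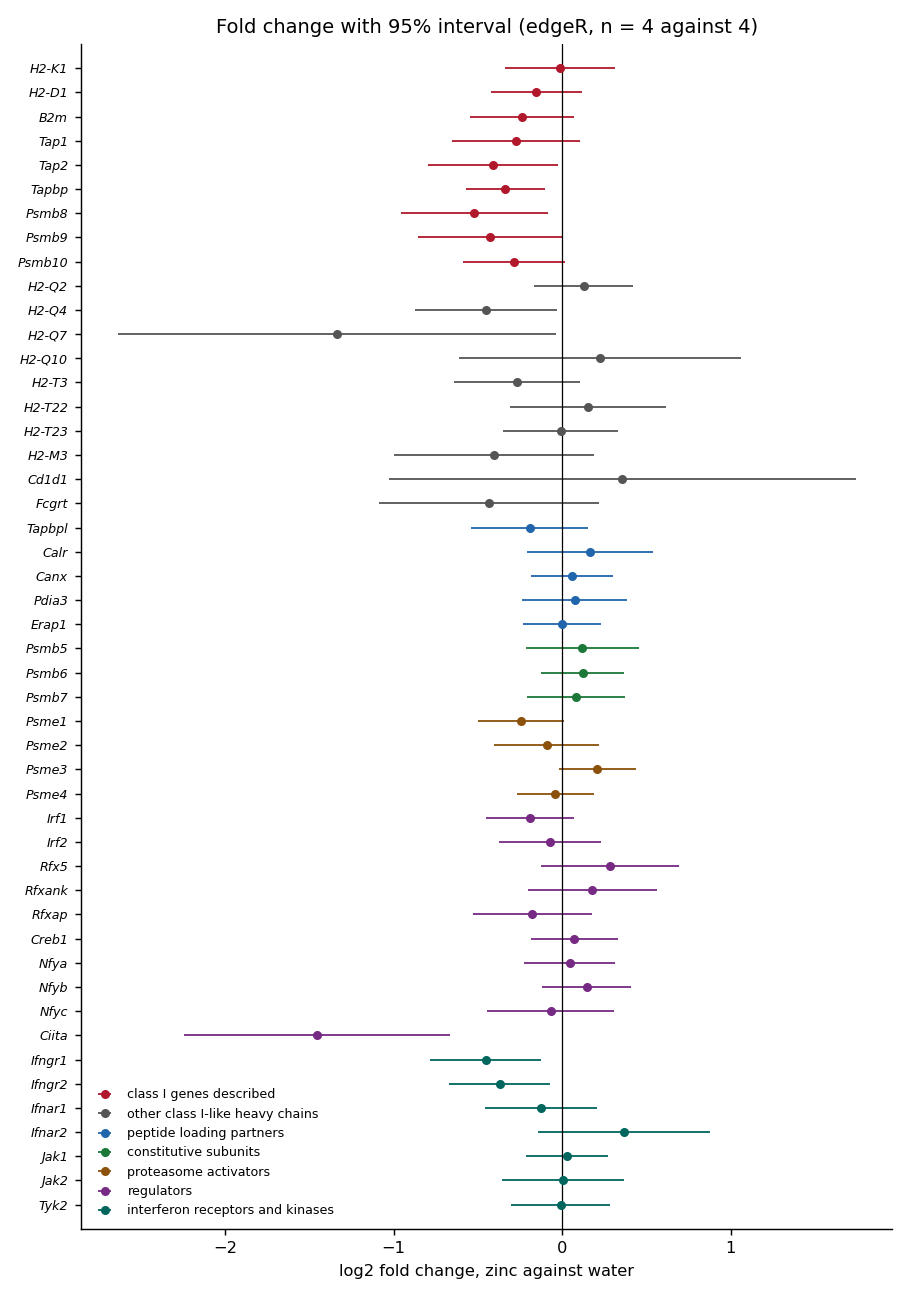
Log2 fold change (zinc against water) with its 95% interval from edgeR for the 9 tested class I genes and other tested genes of the pathway, 4 libraries against 4. The 9 class I genes run from -0.52 to -0.01 (H2-K1, which changes side with the scaling), while the others fall on both sides of 0, with Ciita furthest to the left at -1.46.

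The same libraries were high or low for many of the class I genes. On the TMM scale, water 1 had the highest value of the water group in 8 of the 9 tested genes, and zinc 2 had the lowest value of the zinc group in 7 of 9 and lay below the lowest water library in 8 of 9. Zinc 3 was the highest of its group in 5 of 9, and lay below the lowest water library only for Tapbp. The place of water 1 rested on scaling, since its TMM factor was 0.764, next to 0.775 for zinc 1, and with library totals it was the highest in 0 of 9 genes and water 4 in 7 of 9. The order within the zinc group changed as well, since with library totals zinc 1 was the lowest in 6 of 9 genes and zinc 2 in 3 of 9. As a share of all counts, the 10 genes took 0.102%, 0.0986%, 0.0918% and 0.117% in water 1 to 4 and 0.0773%, 0.0822%, 0.0979% and 0.117% in zinc 1 to 4.

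The mean of the 9 genes' centred log2 CPM had an SD of 0.24 over the 8 libraries. Among 3065 other genes with a mean of at least 5 CPM and at least that SD, those closest to this mean pattern were Tada1, Ptpn12, Timm21, Inip and Fbp1. The SD of their difference from it over the 8 libraries was 0.108, 0.118, 0.124, 0.161 and 0.161, against a median of 0.402 over the 3065 genes. By the same measure the class I genes themselves lay between 0.137 (Tapbp) and 0.260 (Psmb8).

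**Figure D5:**
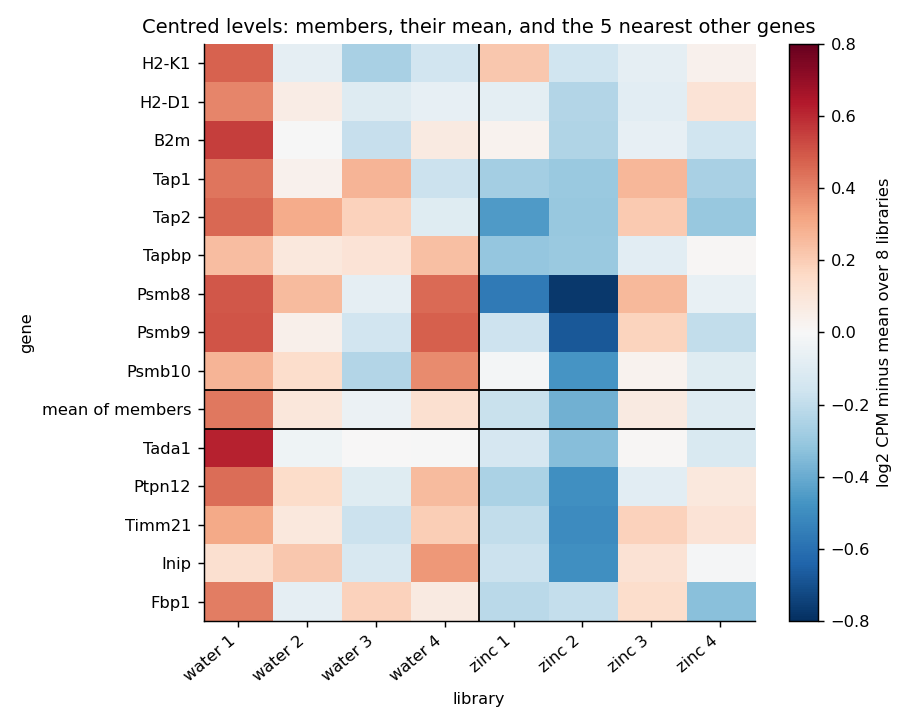
Log2 CPM minus the mean over the 8 libraries (colour scale) for the 9 tested class I genes, their mean, and the 5 genes nearest to that mean. Water 1 is highest for the mean pattern (0.42 above its average) and zinc 2 lowest (0.38 below).

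The labelled cell type was checked against marker lists. The 10 Paneth cell markers, led by Lyz1 and Defa24, took 43.3% to 56.4% of all counts in each library. Leukocytes express class I and immunoproteasome genes strongly, and the sum of 20 leukocyte markers was 4 to 39 counts per library (0.344 to 1.49 CPM in water and 0.238 to 1.03 CPM in zinc), with 9 of 20, among them Cd3e and Cd8a, at 0 in all libraries. The leukocyte sum was lowest in zinc 1 and zinc 2 (4 and 6 counts), the libraries lowest for Psmb8. Within the zinc group it was highest in zinc 3 (26 counts), and over all libraries in water 4 (39 counts, of which 32 were Ptprc). In water 1 to 4 it was 1.06, 0.344, 0.508 and 1.49 CPM, beside 20.8, 17.6, 14.0 and 20.2 CPM for Psmb8. In zinc 1 to 4 it was 0.238, 0.290, 1.03 and 0.970 CPM, beside 9.92, 8.59, 17.7 and 14.1 CPM for Psmb8. The part of the leukocyte sum in the class I values was not tested. Endothelial and stromal markers gave 3 to 31 counts per library, with 7 of 10 at 0 throughout. Crypt stem cell markers summed to 4566 to 5947 CPM in water and 3230 to 4668 CPM in zinc, and their part in the class I values was not tested either. Most of that sum was Olfm4 (4082 to 5484 CPM in water and 2799 to 4150 CPM in zinc), and the other 5 stem cell markers together overlapped between the groups, with 464 to 515 CPM in water and 431 to 529 CPM in zinc. Goblet cell markers took 0.921% to 1.63% of counts, the highest share after the Paneth list. The sums were 234 to 256 CPM in water and 236 to 318 CPM in zinc for enterocyte markers, 41.5 to 107 and 45.6 to 87.1 CPM for enteroendocrine markers, and 14.1 to 120 and 17.1 to 81.8 CPM for tuft cell markers.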

How the data were processed

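The file deposited by the authors holds raw counts (whole numbers, not normalized) for each Ensembl gene in 8 libraries, and 0 columns of other samples. Per the submitters' processing notes the build was mm39 and the tools included FastQC 0.12.0, STAR 2.7.0a and DESeq2; the counter, annotation, use of strand and fate of multi-mapped reads were not stated. Libraries were made with a stranded mRNA kit. Gene IDs were matched to GENCODE M39 on GRCm39 (54749 of 55414). Totals were 20760764 to 24117111 counts, so that 3 counts, the limit taken for a count of 0, equal 0.115 to 0.188 CPM per library. There were no molecular identifiers. The Poisson intervals and the floors cover counting error only, while the edgeR intervals also include variation between libraries.

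The fit across genes used edgeR 4.0.16 (R 4.3.3; low-count filter with minimum count 10, TMM, robust quasi-likelihood F test, treatment as the single term), with Benjamini-Hochberg adjustment over all 11988 genes tested and a threshold of 0.05. The SE of a log2 fold change was its size divided by the root of F. Ratios of subunits used counts plus 0.5 per kilobase and exact two-sided permutation of the difference in means over 70 assignments. DESeq2 1.42.0 and limma 3.58.1 were alternatives, next to other scalings, filters, a replicate block and leaving out each library. The procedure was tested on simulated data. Levels per kilobase used merged exons, and library totals as the only scaling and the canonical length were added after the data were seen. Within groups, pairs of libraries differed by more than sampling noise and each was counted once. Per the study's methods each library came from an individual mouse, which the labels do not tie to a replicate number.

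The 10 genes and all lists were chosen with earlier results of these data known. Named were the 10 genes, Psmb5, Psmb6 and Psmb7, the gene with the smallest p of each other list and any past the threshold, and the 5 genes of nearest pattern. Ifngr2, H2-Q7 and the genes given only as examples of a list or of markers were chosen after their values were seen. A gene of the regulator list and a leukocyte marker are counted in their lists but not reported here by themselves.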

Additional observations from a re-analysis of the deposited data

Results flagged for a closer look

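Tap1 in zinc 3 stood apart from its group, with 11.85 CPM, while zinc 1, 2 and 4 held 8.01 to 8.22 CPM. Its distance to the nearest of them was 0.946 of the range of the group, above the 95% limit of Dixon's test for 4 values. It was the only library past this limit among 26 groups of 4 examined, and chance flags about 1 in 20 groups.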

How the results depend on the processing

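The number of class I genes past the threshold was 0 under all 16 alternatives, including each library left out. The log2 fold changes of the 8 tested genes other than H2-K1 stayed below 0 under all 16, but their size rested in part on single libraries. Without water 1, B2m moved to -0.07, H2-D1 to -0.04 and Tap1 to -0.18. Without zinc 2, H2-D1 moved to -0.10 and Psmb10 to -0.19, and without zinc 3, Tap1 moved to -0.44. With single libraries left out, 1 to 6 of the 9 genes had an unadjusted p below 0.05 by edgeR. Over all genes, these fits had from 391 of 12124 (without water 3) to 796 of 12212 (without water 1) at such a p. The 6 arose without zinc 3, where 562 of 12180 genes had one. H2-K1 turned to above 0 with library totals as the only scaling (0.016), with limma-voom (0.0045) and with the replicate block (0.010), and ranged from -0.10 to 0.17 when single libraries were left out, above 0 without water 1 (0.17), zinc 2 (0.041) or zinc 3 (0.0072). The 3 ratios ranged over single libraries left out from -0.93 to -0.57 (Psmb8 to Psmb5), -0.68 to -0.44 (Psmb9 to Psmb6) and -0.45 to -0.29 (Psmb10 to Psmb7) on the log2 scale. Only without zinc 3 did they reach an adjusted p of 0.0286, the smallest that 4 against 3 allow in the exact permutation test. For the other genes of the pathway, 1 was past the threshold without a low-count filter (Ciita). Over all genes, 36 were called by DESeq2 and 66 without a low-count filter, against 10, and 1 to 15 with single libraries left out (1 without water 2, 4 without water 3 and 3 without zinc 2). The cause of these shifts was not tested.

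Water and zinc libraries share replicate numbers. The deviations of same-numbered libraries from their group means correlated by 0.233, 5.51e-05, 0.127 and 0.263 over 11988 genes. Those of differently numbered libraries correlated by -0.2095 to 0.0397. Numbers 1, 3 and 4 stood above all of these, and number 2 did not. TMM factors also ran close by number (0.764, 1.02, 1.07 and 1.21 in water, 0.775, 0.998, 1.05 and 1.23 in zinc). Not every pair passed 0.1, so the numbers were not taken as pairs in the main fit and the permutations. Whether same-numbered libraries share a batch was not tested. In the fit with the replicate block, edgeR called 32 of all genes (6 higher, 26 lower) and 0 of the class I genes, of which 6 had an unadjusted p below 0.05, as did 937 of all 11988 genes in that fit. For the ratios, 4 pairs are too few for a sign-flip test to pass the threshold. Transcripts of a few counts, such as Nlrc5, are limited by depth.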
